A study of Homo sapiens with 24 samples.

Results

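RASGRP1, RASGRP2, RASGRP3, SOS1, SOS2 and RASGRF2, which encode 6 guanine nucleotide exchange factors of Ras-family GTPases, were described in 4 breast cancer lines under cisplatin. They were chosen by gene symbol, with 1 probe each, from 20046 genes with an annotated probe on an Illumina bead array, and 4 of them were among the 14807 genes past the detection filter. The genes were selected on earlier results of the same arrays, and which values weighed in that selection is not recorded. Their levels and changes are therefore a description, given without p-values. The study measured RNA of MDA-MB-231, MDA-MB-157, HCC38 and BT549, established human lines of triple-negative breast cancer, a class defined by the lack of estrogen receptor, progesterone receptor and HER2 amplification. Each line received 2 µM cisplatin, a platinum drug that crosslinks DNA, for 0, 24 or 72 h. The 12 groups of line and time held 2 arrays each, 24 in all. No untreated group of 24 or 72 h was analysed here, so the drug and the time in culture cannot be told apart. The series calls the replicates independent but does not say whether they were separate cultures, so the errors below measure the spread between these arrays.

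Ras proteins are switches that are active when bound to GTP, and exchange factors turn them on by letting GDP leave. SOS1 and SOS2 are carried by the adaptor GRB2 to receptor tyrosine kinases, whereas RASGRP1 and RASGRP3 bind diacylglycerol made by phospholipase C, and RASGRF2 responds to calcium through calmodulin. SOS1 and SOS2 are made in most tissues. RASGRP1 is best known from T cells, RASGRP2 as an activator of Rap proteins in platelets, RASGRP3 from B cells and endothelium, and RASGRF2 from neurons.

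Between 38.7% and 46.4% of the probes were detected on an array, where detected means a deposited detection p under 0.05. A level below is the log2 intensity after background correction and quantile normalization, and the lowest level of a detected probe lay between 4.82 and 5.10 on the 24 arrays. Levels of different probes are not comparable with each other. Replicate arrays correlated at 0.977 to 0.991, with the lowest value in MDA-MB-231 at 0 h. Markers were read beside the labels of the lines, which does not test the identity of each line. Among 9 markers of breast carcinoma lines, VIM and CD44 were detected on 24 of 24 arrays. The rest ranged from 5 arrays (KRT5, all in HCC38) to 23 (KRT8 and KRT19). ESR1 was detected on 0 arrays, PGR on 2 and ERBB2, the HER2 gene, on 24. EPCAM, an epithelial surface marker, had its highest line mean in HCC38 (13.06) and its lowest in BT549 (5.26). In these bulk samples, fewer cells that express a gene and less of its RNA per cell cannot be told apart.

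The level of RASGRP3, the calcium and diacylglycerol-responsive factor, was high in MDA-MB-231 at every time, below detection in HCC38 at every time, and higher after 72 h of cisplatin than at 0 h in BT549 and MDA-MB-157. RefSeq (GRCh38.p14) places 4 transcription starts of this gene on the plus strand of chromosome 2, and the array does not tell which were used. All 6 genes had start windows of 300 bases in the RefSeq table, 10 windows in all. The windows of the first and second RASGRP3 start, at chr2:33436098-33436397 and chr2:33457805-33458104, are shown because both hold the same 10-base element, CTATTTATAG, in capitals below. It matches the consensus of the MEF2 transcription factors.
RASGRP3 start window 1: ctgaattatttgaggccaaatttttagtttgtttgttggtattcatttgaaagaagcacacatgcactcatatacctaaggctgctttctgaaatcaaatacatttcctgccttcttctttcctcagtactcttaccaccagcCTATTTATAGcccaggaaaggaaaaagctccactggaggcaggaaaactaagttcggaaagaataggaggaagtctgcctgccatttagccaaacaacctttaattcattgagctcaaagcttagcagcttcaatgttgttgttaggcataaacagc
RASGRP3 start window 2: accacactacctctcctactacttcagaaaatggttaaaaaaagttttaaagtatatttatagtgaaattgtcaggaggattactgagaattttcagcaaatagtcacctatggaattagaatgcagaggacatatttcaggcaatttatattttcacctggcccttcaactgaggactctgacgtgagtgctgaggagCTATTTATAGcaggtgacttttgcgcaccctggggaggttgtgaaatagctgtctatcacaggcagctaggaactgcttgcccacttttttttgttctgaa
The element begins 107 bases before the first start and 51 bases before the second. It contains the TATA-type letters TATAAA on the reverse strand, and the MEF2 consensus was chosen for display after the windows had been read. The MEF2 consensus occurred in 1050 of 35116 RefSeq start windows (2.99%), in the exact letters shown in 45 (0.128%), and in 0 of the 8 other windows of the 6 genes. The 4 RASGRP3 windows held 39.7%, 40%, 50.3% and 43.7% G and C, against a median of 58.7% over all windows. Those of RASGRP1 (71.3%), SOS2 (77.3%) and RASGRF2 (74.7%) were rich in G and C, RASGRP2 had 65%, and the 2 windows of SOS1 had 51% and 65.7%. On both strands, the AP-1 element TGANTCA and the cyclic AMP element TGACGTCA were in none of the 10 windows and in 7.71% and 1.85% of all windows. The GC box GGGCGG was in 45% of all windows and in windows of RASGRP2, RASGRP3, SOS1, SOS2 and RASGRF2, with 6 copies in that of SOS2. These matches describe letters and were not tied to the expression values.

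In BT549 the RASGRP3 level was 4.86 and 4.92 at 0 h, 4.87 and 4.69 at 24 h, and 5.87 and 6.11 at 72 h. The arrays of 72 h lay above those of both earlier times without overlap, and those of 0 and 24 h overlapped. The probe was detected on 1 of 2 arrays at 0 h, on 0 at 24 h and on 2 at 72 h. The log2 change from 0 to 72 h was 1.10 ± 0.20 (SE, n = 2 arrays per group), a 2.14-fold difference, and against 24 h the level at 72 h was at least 1.99-fold higher. A bound of this kind sets the brighter group against the dim probe or the lowest detected signal of the dim arrays, whichever was higher. Here and below, such a bound leaves out the spread between arrays and holds only for the reported processing.

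In MDA-MB-157 the RASGRP3 level was 5.18 and 5.12 at 0 h, 5.69 and 5.96 at 24 h, and 6.39 and 6.64 at 72 h. All 6 arrays detected the probe, and the 3 times did not overlap. The change was 0.67 ± 0.20 at 24 h and 1.36 ± 0.20 at 72 h (SE, n = 2 arrays per group), the latter a 2.57-fold difference. The 2 changes share the 0 h arrays. From 24 to 72 h the difference was 0.69 ± 0.20. MDA-MB-157 stood at an intermediate level at 24 h, when the BT549 arrays overlapped with those of 0 h. The size of this 24 h change in MDA-MB-157 depended on the processing, as given further below.

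In MDA-MB-231 the level was 6.65 and 7.32 at 0 h, 6.89 and 6.88 at 24 h, and 7.10 and 7.40 at 72 h. The 6 arrays overlapped between 0 h and each later time. The changes were -0.10 ± 0.20 at 24 h and 0.27 ± 0.20 at 72 h, within 2 standard errors of 0. In HCC38 the level was 4.49 and 4.70 at 0 h, 4.37 and 4.39 at 24 h, and 4.53 and 4.43 at 72 h. None of these 6 arrays detected the probe, so HCC38 gives only an upper limit and no change.

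**Figure D1:**
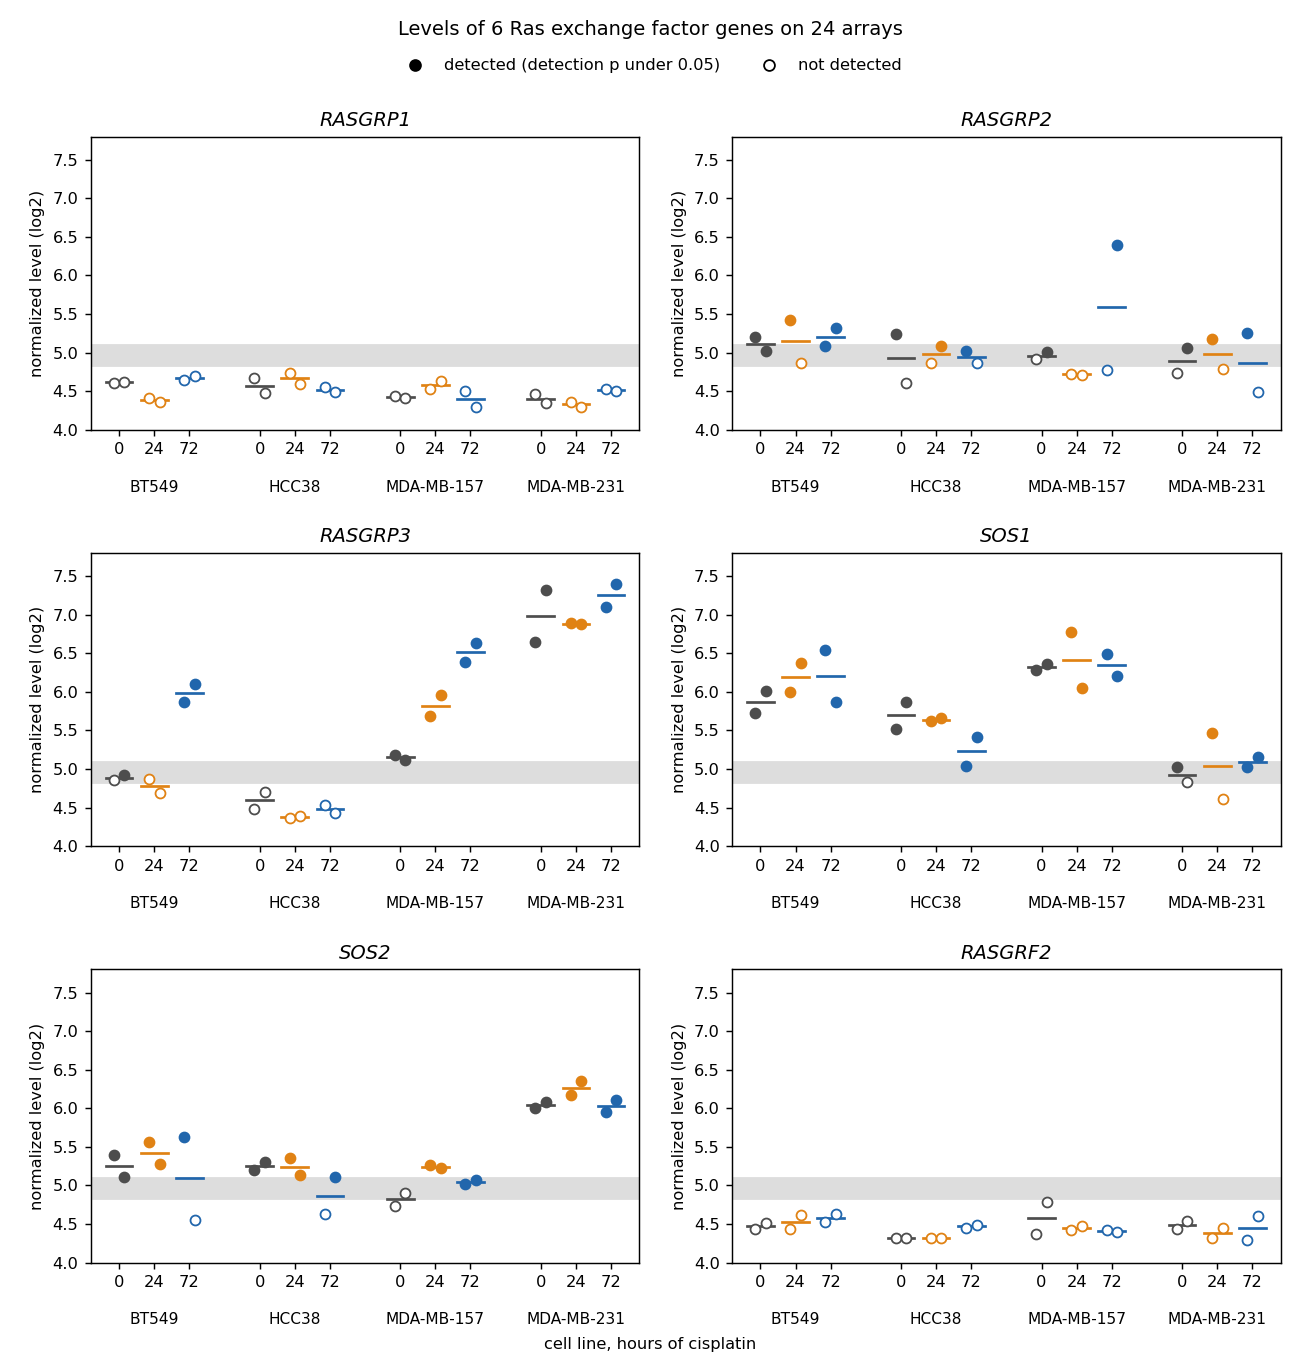
Normalized log2 level of each gene on all 24 arrays, by cell line and hours of cisplatin; each point is 1 array, filled where the probe was detected and open where it was not, bars are group means, and the grey band spans the lowest detected levels of the arrays (4.82 to 5.10). RASGRP3 stands well above the band in MDA-MB-231, is higher at each later time in MDA-MB-157 and at 72 h in BT549, and stays below the band in HCC38, while RASGRP1 and RASGRF2 stay below it on every array.

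The RASGRP3 signal was dim before normalization. In BT549 the deposited RASGRP3 intensity was 155.0 and 129.3 at 0 h, 115.2 and 115.9 at 24 h, and 139.0 and 144.5 at 72 h, so it was not higher at 72 h than at 0 h. The background, taken as the intensity at a detection p of 0.5, was 131.0 and 109.9 on the 0 h arrays and 100.6 and 103.9 on the 72 h arrays. Above background the intensity was 24.0 and 19.4 at 0 h and 38.4 and 40.6 at 72 h. In MDA-MB-157 the intensity itself was higher at 72 h, with 111.8 and 124.5 at 0 h, 131.2 and 155.4 at 24 h, and 218.9 and 154.9 at 72 h. Its excess over background went from 15.4 and 17.4 through 31.1 and 48.8 to 103.9 and 56.6. The MDA-MB-231 intensities ran from 150.3 to 354.7 and the HCC38 intensities from 92.7 to 122.5.

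**Figure D2:**
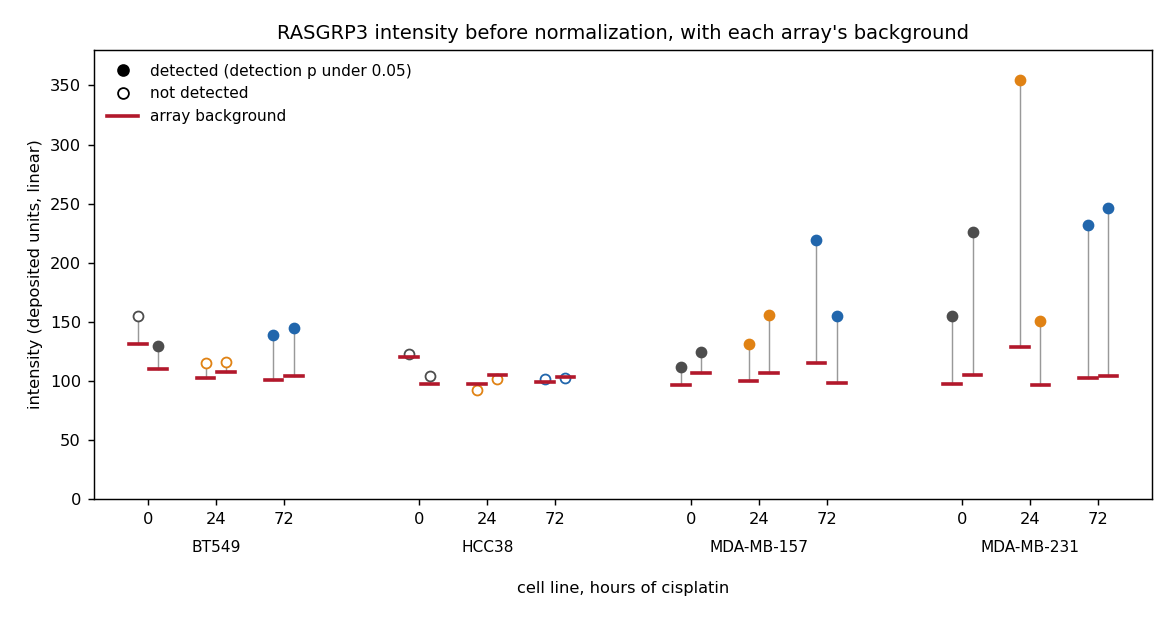
Deposited RASGRP3 intensity on a linear axis for each of the 24 arrays (points, filled where detected, coloured by hour), with the background of the same array as a red bar and the excess as a grey line. In BT549 the points of 0 and 72 h cover a similar range (129.3 to 155.0 and 139.0 to 144.5) while the background bars differ, in MDA-MB-157 the points themselves are higher at 72 h, and in HCC38 the points sit at the bars.

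In the limma fit over all 14807 genes, with a call at a Benjamini-Hochberg adjusted p under 0.05, RASGRP3 was the 1 member called at 72 h in BT549, where 1.01% of all genes were called, and in MDA-MB-157, where 0.081% were. It was also the 1 member called at 72 h for the average of the 4 lines, with a log2 change of 0.65 ± 0.10 (SE, n = 8 arrays per time), where 1.21% of all genes were called. That average takes in HCC38, where the probe was not detected. Averaged over the other 3 lines, a setting chosen after seeing the data, the change was 0.91 ± 0.12, with the changes of BT549 and MDA-MB-157 the largest. None of the 4 members was called at 72 h in HCC38 (0.081% of genes) or MDA-MB-231 (0.00675%). At 24 h none was called in BT549 (0.027%), HCC38 (0%), MDA-MB-157 (0%), MDA-MB-231 (0%) or the average (0.0135%). The test of whether the change differed between lines called none of them at 24 h (0% of genes) or at 72 h (0.0405%). Because these contrasts may have served to select the genes, nothing is read from the counts.

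The call in BT549 was lost when any of 3 arrays was left out (either 0 h array or the second 72 h array), with changes of 1.07, 1.13 and 0.98 in that order, and that in MDA-MB-157 likewise (either 0 h array or the second 72 h array), with changes of 1.39, 1.33 and 1.24. Over all 24 arrays left out in turn the change ranged from 0.98 to 1.22 in BT549 and from 1.24 to 1.48 in MDA-MB-157. Without background correction the changes were 0.38 in BT549 and 0.54 in MDA-MB-157, with median scaling 0.91 and 1.44, and in the authors' log2 values 0.62 and 0.44, and neither line kept its call in these 3 settings. Within the slides, 1 array against 1, the change was 0.95 and 1.25 in BT549 and 1.45 and 1.27 in MDA-MB-157. The 24 h change in MDA-MB-157 was 0.67 as reported and 0.71 with median scaling. It was 0.39 with a background offset of 50, 0.23 without background correction and 0.17 in the authors' log2 values.

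**Figure D3:**
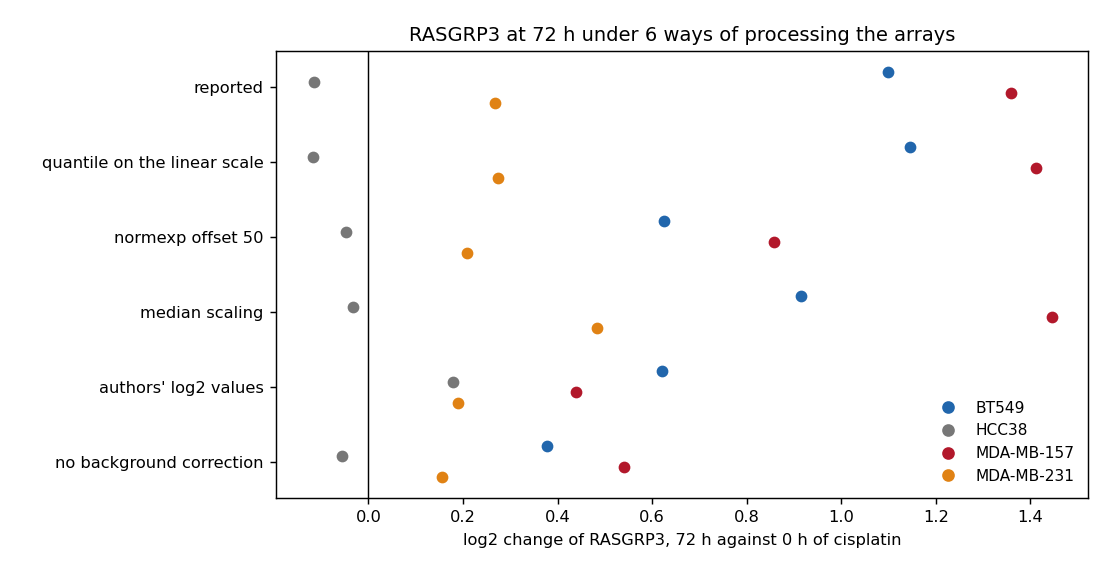
Log2 change of RASGRP3 from 0 to 72 h of cisplatin in each line (colours) under the reported processing and 5 others; each point is the difference of 2 group means of 2 arrays. BT549 and MDA-MB-157 lie to the right of 0 in all 6, from 0.38 to 1.14 and from 0.44 to 1.44, MDA-MB-231 lies between 0.16 and 0.48, and HCC38, where the probe was not detected, lies at -0.12 as reported and at 0.18 in the authors' values. The 6 use the same arrays and are not separate measurements. The authors' values are scaled to each array's upper quartile with no background subtracted. In BT549 that quartile was 281 and 222 at 0 h and 166 and 160 at 72 h. The RASGRP3 intensity was 155 and 129.3 at 0 h and 139 and 144.5 at 72 h.

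Over the 12 groups the RASGRP3 order ran from MDA-MB-231, whose 24 and 72 h groups each overlapped with its 0 h group, to MDA-MB-157 at 72 h, which did not overlap with its neighbours. BT549 at 72 h and MDA-MB-157 at 24 h followed and overlapped. MDA-MB-157 at 0 h came next, apart from its neighbours, then BT549 at 0 h. BT549 at 24 h and HCC38 at all times, with no array that detected the probe, have no order among themselves. At 0 h the MDA-MB-231 mean was 1.83 ± 0.20 above MDA-MB-157 and 2.09 ± 0.20 above BT549 on the log2 scale, and at least 4.34-fold above HCC38. At 72 h the gap to MDA-MB-157 was 0.74 ± 0.20 and that to BT549 1.26 ± 0.20, and MDA-MB-231 was at least 5.09-fold above HCC38.

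Markers of B cells and endothelial cells, in which RASGRP3 is best known, were measured on the same arrays. Of 6 measured B cell markers, PAX5, BLNK and PTPRC were detected on 0 of 24 arrays, MS4A1 on 6, CD79A on 14 and CD79B on 22. Sums of linear levels, here and below, take in undetected probes at their background level. The summed level of the 6 was 194 to 202 at 0 h and 176 to 191 at 72 h in BT549, and 168 to 173 and 173 to 195 in MDA-MB-157. Of 5 endothelial markers, CDH5 and VWF were detected on 0 arrays, KDR on 1, TEK on 5 and PECAM1 on 6. Their summed level was higher at 72 h than at 0 h in both lines, at 126 to 127 against 114 to 118 in BT549 and 125 to 127 against 119 to 121 in MDA-MB-157. It was also higher in MDA-MB-231 (122 to 125 against 111 to 116) and overlapped in HCC38 (110 to 118 against 107 to 122), and the part of this in the RASGRP3 values was not tested. The summed level of the 5 neuronal markers went in the same order as RASGRP3 in MDA-MB-157. It was 494 to 509 at 0 h, 541 to 594 at 24 h and 688 to 699 at 72 h. A sum follows its brightest markers, and the course of single markers was not described. In MDA-MB-157 the mean level was 8.28 for SNAP25, 7.04 for SYT1 and 6.37 for SYN1. RBFOX3 was detected on 0 and GAP43 on 1 of 6 arrays there. The neuronal sums at 0 and 72 h were 215 to 247 and 233 to 325 in BT549, 142 to 152 and 126 to 136 in HCC38, and 113 to 116 and 124 on both arrays in MDA-MB-231. Their part in the RASGRP3 values was not tested either.

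RASGRP2, the Rap activator of platelets, sat at the edge of detection in every line. It was detected on 13 of 24 arrays, from 5 of 6 in BT549 to 2 of 6 in MDA-MB-157, and its 0 h means lay between 4.89 in MDA-MB-231 and 5.11 in BT549. In MDA-MB-157 it measured 4.92 and 5.00 at 0 h, 4.73 and 4.71 at 24 h, and 4.77 and 6.40 at 72 h. The second 72 h array was the highest of all 24, the first lay below both 0 h arrays, and the change of 0.63 ± 0.36 rested on that 1 array. At 24 h neither array detected it, and at 0 h 1 of 2 did. In the other 3 lines the arrays of 0 h overlapped with those of 24 h and of 72 h, and the changes lay between -0.03 and 0.09 with a standard error of 0.36. Of 5 platelet markers, GP9 was detected on 0 arrays and PF4 and ITGA2B on 1 each, while PPBP and GP1BA were detected on 24. Their summed level in MDA-MB-157 was 198 to 226 at 0 h and 179 to 201 at 72 h.

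RASGRP1, the T cell factor, was not detected on any of the 24 arrays. Its intensity ran from 87.2 to 140.4 and its lowest detection p was 0.132. Its levels, 4.29 to 4.74 with a median of 4.50, lay below the lowest detected level of every array. Among 8 T cell markers, CD3D, CD3E and PTPRC were detected on 0 arrays, CD3G on 1, LCK on 3, CD247 on 4, all in HCC38, ZAP70 on 5 and CD2 on 10. RASGRF2, the calmodulin-dependent factor of neurons, was likewise detected on 0 of 24 arrays. Its intensity ran from 89.8 to 128.6, its lowest detection p was 0.0974, and its levels were 4.30 to 4.78 with a median of 4.44. Of the 5 neuronal markers, RBFOX3 was detected on 0 of 24 arrays, GAP43 on 3, SNAP25 on 10, SYN1 on 14 and SYT1 on 16. SNAP25, SYN1 and SYT1 were each detected on all 6 MDA-MB-157 arrays, and on 0, 1 and 0 of the MDA-MB-231 arrays. For RASGRP1 and RASGRF2 no order of lines or times can be read, and a low RNA level cannot be told apart from a probe that responds weakly.

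SOS1, a receptor-coupled exchange factor, was detected on 22 of 24 arrays and separated the lines. MDA-MB-157 had the highest level at 0 h (6.28 and 6.36), followed by BT549 (5.73 and 6.01), HCC38 (5.52 and 5.87) and MDA-MB-231 (5.02 and 4.83, the second not detected). BT549 and HCC38 overlapped, and the other neighbours did not. MDA-MB-157 lay 1.39 ± 0.28 above MDA-MB-231 on the log2 scale. MDA-MB-231, the line with the highest RASGRP3 level, had the lowest SOS1 level, but MDA-MB-157, next in RASGRP3 at 0 h, had the highest. Over the 12 group means the 2 genes correlated at -0.335. Over all its times MDA-MB-231 had SOS1 levels of 4.62 to 5.46 against 6.05 to 6.78 in MDA-MB-157.

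Cisplatin groups of SOS1 mostly overlapped with 0 h. In BT549 the level was 5.998 and 6.375 at 24 h and 6.54 and 5.87 at 72 h. In MDA-MB-157 it was 6.78 and 6.05 at 24 h and 6.48 and 6.21 at 72 h. MDA-MB-231 had 5.46 and 4.62 at 24 h, the second not detected, and 5.02 and 5.15 at 72 h, the last 2 just above its 0 h arrays. These 3 lines gave changes at 72 h of 0.34, 0.03 and 0.16, each with a standard error of 0.28. In HCC38 the level was 5.62 and 5.65 at 24 h and 5.04 and 5.42 at 72 h, so both 72 h arrays lay below both 0 h arrays, by -0.47 ± 0.28 in the mean. The 2 slides gave -0.83 and -0.11 for that difference. It was -0.69 with median scaling and -0.05 in the authors' log2 values.

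SOS2, the close relative of SOS1, was detected on 20 of 24 arrays and had another order of lines. MDA-MB-231 was highest at 0 h with 6.005 and 6.075, and HCC38 (5.20 and 5.30) and BT549 (5.39 and 5.11) overlapped. MDA-MB-157 had 4.74 and 4.90, neither of them detected. MDA-MB-231 was at least 2.08-fold above MDA-MB-157 at 0 h and lay 0.79 ± 0.25 above both HCC38 and BT549 on the log2 scale. It stayed apart at 24 h (6.17 and 6.36, both above its 0 h arrays) and 72 h (5.96 and 6.10), where the highest array of the other lines, in BT549, had 5.63.

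In MDA-MB-157, SOS2 passed from undetected to detected on both arrays at 24 h (5.27 and 5.22) and at 72 h (5.02 and 5.07). The bounds against 0 h were 1.20-fold and 1.05-fold, and they leave out the spread between arrays. With that spread the changes were 0.43 ± 0.25 and 0.23 ± 0.25, within 2 standard errors of 0. In the authors' log2 values they were 0.06 and -0.05. In HCC38 it measured 5.35 and 5.14 at 24 h and 4.62 and 5.11 at 72 h, the first of these not detected. Both 72 h arrays lay below the 0 h arrays, with a change of -0.38 ± 0.25. That change was -0.52 with median scaling and 0.03 in the authors' log2 values. In BT549 SOS2 measured 5.56 and 5.27 at 24 h and 5.63 and 4.55 at 72 h, and the second 72 h array was the one on which it was not detected. That array also held the lower SOS1 level of its group, 5.87 against 6.54, while RASGRP3 was higher on it, 6.11 against 5.87. The changes in MDA-MB-231 were 0.23 ± 0.25 at 24 h and -0.01 ± 0.25 at 72 h.

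**Figure D4:**
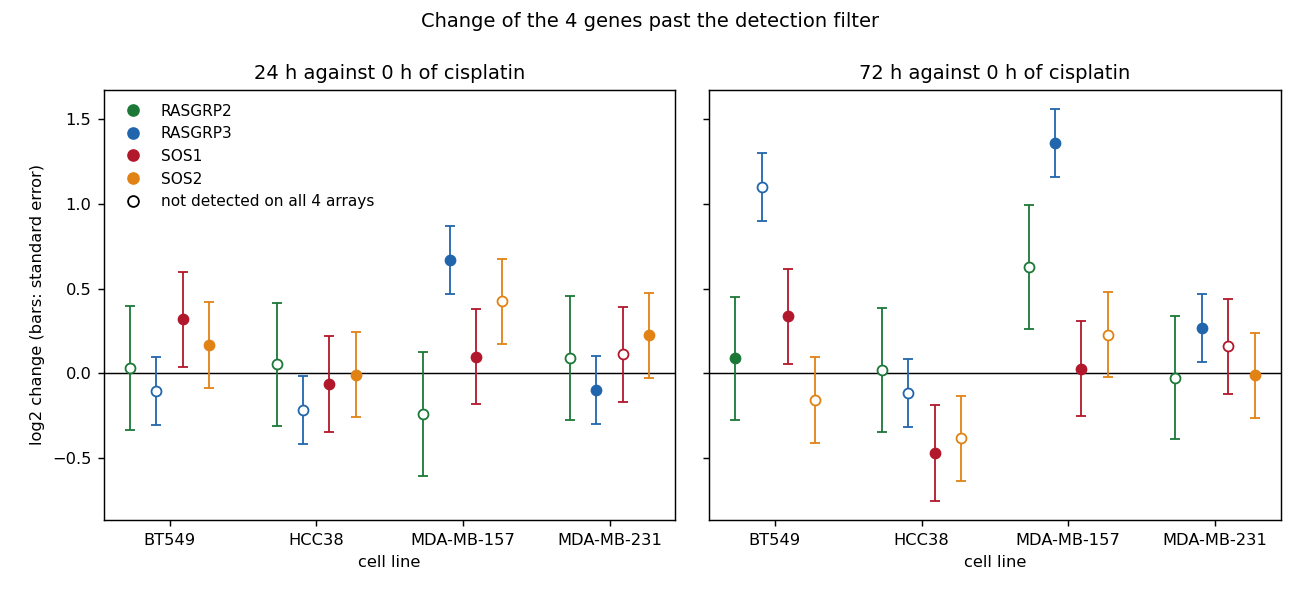
Log2 change of the 4 genes past the detection filter at 24 h (left) and 72 h (right) against 0 h, by cell line; points are differences of group means of 2 arrays, bars are standard errors, and open points mark comparisons in which not all 4 arrays detected the probe. RASGRP3 lies at 1.10 in BT549 and 1.36 in MDA-MB-157 at 72 h, while all SOS1 and SOS2 changes lie between -0.47 and 0.43.

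Quantile normalization sets all arrays to one distribution, whereas scaling each array to its median does not. With median scaling the median of all genes moved at 72 h by -0.47 in BT549, -0.22 in HCC38, 0.17 in MDA-MB-157 and 0.12 in MDA-MB-231. Relative to these shifts RASGRP3 lay at 0.36 in MDA-MB-231, 1.38 in BT549 and 1.27 in MDA-MB-157. SOS1 lay at 0.34, -0.47, 0.09 and 0.07 in BT549, HCC38, MDA-MB-157 and MDA-MB-231. SOS2 lay at 0.11 in BT549, -0.30 in HCC38 and 0.03 in MDA-MB-231. The sign turned on this scale for SOS2 in BT549 (-0.16 with quantile normalization) and in MDA-MB-231 (-0.01), neither of them called. SOS1 in BT549 was -0.12 under median scaling before the shift was taken off.

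At 0 h the F test over the 4 lines called 3 of the 4 members (RASGRP3, SOS1 and SOS2, not RASGRP2), against 66.8% of all genes tested. By the rule of likeness, Pearson correlation over the 12 group means, the genes most like RASGRP3 were ZNF195 (0.954), DHRS7B (0.951) and MEA1 (0.948), and the least like was DDHD2 (-0.946). For SOS1 they were OXCT1 (0.970), PTK7 (0.962) and PNMA3 (0.962), with MAPKAPK3 the least like (-0.973). For SOS2 they were CETN3 (0.976), SLAMF7 (0.965) and PRSS2 (0.959), with NINL the least like (-0.955). SLAMF7 was detected on 13 of 24 arrays and PRSS2 on 7. For RASGRP2 they were KRTAP4-8 (0.847), ZNF684 (0.821) and SLC13A4 (0.812), with OR8B12 the least like (-0.764). KRTAP4-8 was detected on 10 arrays, SLC13A4 on 4 and OR8B12 on 7. Among the members, RASGRP3 correlated with SOS2 at 0.694 and with SOS1 at -0.335, and SOS1 with SOS2 at -0.702. These values describe 12 group means from 4 lines, which share arrays and lines, and means of groups without a detected array are background levels.

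The genes around the exchange factors were followed with 7 lists of 137 genes, of which 111 were tested. The lists were other RasGEF-domain genes, Ras-family GTPases, Ras GTPase-activating proteins, adaptors upstream of SOS, diacylglycerol enzymes with protein kinase C, Ras effectors with the ERK cascade, and ERK target and feedback genes. At 0 h, 85 of 111 differed between the lines (limma F test, Benjamini-Hochberg adjusted p under 0.05), which is 76.6% against 66.8% of all genes. The counts were 13 of 18, 10 of 12, 5 of 8, 15 of 17, 18 of 24, 9 of 14 and 15 of 18 in the order above.

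The genes named below for 0 h were the 2 called genes per list with the widest spread. Their p-values were small by that choice and are given as a description. Among the other RasGEF-domain genes the widest spreads at 0 h were in PLCE1, a phospholipase C with an exchange domain, and RGL1, a Ral exchange factor. PLCE1 was 3.08 ± 0.21 higher in BT549 than in HCC38 on the log2 scale (limma F test over the 4 lines, as for each p below, adjusted p = 5.13e-10), and RGL1 was 2.70 ± 0.27 higher in MDA-MB-157 than in HCC38 (adjusted p = 4.59e-07). Among the GTPases they were in RAP1A, 2.25 ± 0.25 higher in MDA-MB-231 than in HCC38 (adjusted p = 1.81e-06), and RAP2A, 1.71 ± 0.19 higher in BT549 than in HCC38 (adjusted p = 1.02e-06). In HCC38 PLCE1 and RAP1A were each detected on 1 of 2 arrays. The other RAP1A probe gave -0.69 for the same pair of lines. SPRED2 and SPRED1, inhibitors that act with the GTPase-activating protein neurofibromin, were highest in MDA-MB-157 and MDA-MB-231. SPRED2 was 2.09 ± 0.21 above HCC38 (adjusted p = 2.58e-08) and SPRED1 1.96 ± 0.22 above BT549 (adjusted p = 5e-07).

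The adaptor NCK1 was 4.89 ± 0.22 higher in HCC38 than in MDA-MB-157 (adjusted p = 1.28e-12), but its other probe gave 0.45. IRS2, the insulin receptor adaptor, was 2.78 ± 0.23 higher in MDA-MB-231 than in BT549 (adjusted p = 3.98e-08). Of the enzymes around diacylglycerol, the activator that RASGRP1 and RASGRP3 share with protein kinase C, both PRKCD and PLCG2 were highest in HCC38 and lowest in BT549. PRKCD, a diacylglycerol-dependent kinase, differed by 3.92 ± 0.27 (adjusted p = 2.06e-10) and PLCG2, a phospholipase C that makes diacylglycerol, by 3.73 ± 0.28 (adjusted p = 4.15e-09). PLCG2 was detected on 1 of 2 BT549 arrays. HCC38, the line with no detected RASGRP3, had the highest mean of both (9.88 and 8.57). MDA-MB-231, the line with the highest RASGRP3 level, came next (9.22 and 7.84).

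Downstream, PIK3CD, a catalytic subunit of phosphoinositide 3-kinase, was 3.01 ± 0.27 higher in MDA-MB-157 than in HCC38 (adjusted p = 1e-07). PIK3R1, a regulatory subunit, was 2.95 ± 0.29 higher in BT549 than in MDA-MB-231 (adjusted p = 4.24e-08), with 0.26 and 1.80 from its other probes. DUSP5, an ERK phosphatase that ERK signalling induces, was 4.04 ± 0.37 higher in MDA-MB-231 than in MDA-MB-157 (adjusted p = 1.04e-07). CCND1, the cyclin D1 gene, was 3.30 ± 0.47 higher in MDA-MB-231 than in BT549 (adjusted p = 1.07e-05). CCND1 was near the same level in HCC38 (12.51) as in MDA-MB-231 (12.58).

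After cisplatin, limma called 0 of the 111 list genes at 24 or 72 h in any line or in the average. At an unadjusted p under 0.05 there were 11 in BT549, 23 in HCC38, 11 in MDA-MB-157, 11 in MDA-MB-231 and 22 in the average at 72 h. Those are 9.91%, 20.7%, 9.91%, 9.91% and 19.8% of the list genes, against 12.5%, 10.3%, 6.88%, 9.35% and 15.5% of all genes. At 24 h there were 4, 6, 2, 8 and 10, or 3.6%, 5.41%, 1.8%, 7.21% and 9.01% against 5.54%, 4.42%, 4.25%, 8.57% and 8.75% of all genes. The count of 0 called genes depended on the setting. Without the first HCC38 array of 0 h, PLCB1 was called at 24 h and PLCB1, PLCD1, SPRY4 and FOSL1 at 72 h in HCC38, and without the first MDA-MB-231 array of 0 h, GRB10 was called at 72 h in MDA-MB-231. The same HCC38 array decided PLCB1 in the average at 24 h and PLCB1 and ETV4 in the average at 72 h, and EPHA4 was called at 72 h in MDA-MB-157 without either BT549 array of 24 h. With a term per line for the replicate number, added after seeing the data, 1 list gene was called at 72 h in BT549 (CCND1), 2 in HCC38 (PLCB1 and FOS), 1 in MDA-MB-157 (EPHA4) and 3 in the average (RASA3, FOS and ETV4). These genes were named after their values were seen. The ERK target and feedback genes had a median log2 change at 72 h of 0.45 in BT549, 0.25 in HCC38, -0.08 in MDA-MB-157 and -0.17 in MDA-MB-231, against -0.01, -0.01, 0.01 and 0.01 for all genes. The other RasGEF-domain genes had medians of -0.0038, -0.03, -0.12 and -0.01 in the same order. The medians of the GTPases were -0.13, -0.22, -0.03 and 0.23, those of the adaptors -0.06, -0.05, 0.02 and -0.03, and those of the diacylglycerol enzymes -0.03, -0.21, 0.02 and -0.06. The GTPase-activating proteins had 0.31, -0.01, -0.15 and 0.19, and the effectors -0.01, 0.05, 0.03 and 0.02.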

How the data were processed

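The members and gene lists were chosen with earlier results of these data known. RNA was extracted with a QIAGEN kit, labelled with biotin through an Ambion kit and hybridised to Illumina bead arrays, per the labels' protocols. The authors deposited non-normalized probe intensities with no background subtracted, and a detection p-value beside each intensity, per the file headers. The software that made them is not given in the sources used here. The authors also deposited log2 values in a second table, whose method is not stated. Its identifiers did not belong to its values (correlation with log2 intensity -0.0073 to 0.0073 by identifier). It served only as an alternative after 47319 of 47322 rows were matched by value. The rule matched was log2 intensity minus the log2 upper quartile of the array and minus the probe's median, within a distance of 0.02. These values are therefore deposited intensities scaled by array, with no background subtracted. Each array gives 1 intensity per probe, and the number of arrays limits the precision. All 24 arrays were used, on 2 slides that each held 1 array of every group, and 0 per-sample columns were left out.

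Symbols came from the platform annotation, updated by Entrez identifier to the RefSeq table of GRCh38.p14. A single symbol was found for 30112 of 47322 probes, several for 8 and none for 17202. Intensities were corrected in limma 3.58.1 (R 4.3.3) with normexp, negative controls inferred from detection p, and an offset of 16, then log2-transformed and quantile-normalized. The filter kept probes detected (p under 0.05) on 2 or more arrays, the brightest per gene. A mean was fitted per group (12 residual degrees of freedom) with Benjamini-Hochberg adjustment over all 14807 genes. Named genes were all members, the called list genes with the largest change, the 2 called genes per list with the widest spread at 0 h, and the 3 most and 1 least correlated genes of each member. For 14 of the 137 list genes no annotated probe was used here. Alternatives were other background corrections, scalings, filters, blocks, weights, the authors' values, and leaving out each array or line.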

Additional observations from a re-analysis of the deposited data

Results flagged for a closer look

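In 1 case the arrays of 1 line all lay above its 0 h arrays while those of another line all lay below theirs, among comparisons in which at least 1 array of each group detected the probe. SOS1 differed by 0.16 at 72 h in MDA-MB-231, detected on 1 of 2 arrays at 0 h, and by -0.47 in HCC38. The MDA-MB-231 arrays were barely apart, with a lowest 72 h level of 5.0239 and a highest 0 h level of 5.0217. With median scaling the changes were 0.19 in MDA-MB-231 and -0.69 in HCC38. In the authors' log2 values they were -0.04 and -0.05, so the directions were not opposite there. The difference between this pair of lines was not tested. The limma F test over all 4 lines did not call SOS1 at 72 h.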

How the results depend on the processing

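Of 1561 changes of the members recomputed under the alternatives, 1040 equalled the reported value to 4 decimals. Most of those settings, such as leaving out an array of another line, a block or a filter, leave the estimate as it is by construction, so they say nothing of stability. Of the other 521, 448 moved by less than 1 standard error, 73 by more, and 0 called ones turned direction. The number of members called at 72 h was 0 in BT549 and in MDA-MB-157 without background correction, with median scaling and with the authors' log2 values, and 0 for the average of the 4 lines with median scaling and with the authors' values. It was 0 in MDA-MB-157 when the HCC38 arrays were left out of the fit. With array quality weights, 1 member, RASGRP3, had a change that differed between lines at 72 h, against 0 as reported. Leaving out 1 array at a time gave 0 to 1 members called in BT549 and in MDA-MB-157 at 72 h, and 0 to 1 for the difference between lines (1 without the first 0 h array of MDA-MB-231). The cause was not tested.

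List genes were called at 72 h under a few alternatives, named after their values were seen. BT549 had 1 without background correction and with an offset of 50 (PHLDA1) and 1 with a term per line for the replicate number (CCND1). MDA-MB-157 had 1, EPHA4 (1.34), with array weights, with that term and with the BT549 arrays left out. That term gave 2 in HCC38 (PLCB1, FOS) and 3 in the average (RASA3, FOS, ETV4). Leaving out 1 array gave 0 to 1 at 24 h in HCC38 and the average, 0 to 4 in HCC38, 0 to 1 in MDA-MB-157 and MDA-MB-231, 0 to 2 in the average and 0 to 1 for the difference between lines at 72 h. Without the first HCC38 array of 0 h, PLCB1 fell by 1.56 at 24 h and HCC38 reached its 4 calls. The number of all genes called for the 72 h average ranged from 31 to 541 when 1 array was left out, the highest without the first MDA-MB-231 array of 0 h.

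Same-numbered arrays of a line correlated, in their deviations from group means, at -0.049 to 0.501, with 0.378 to 0.501 in BT549. With 2 numbers per line they are treated as shared numbers only. With the replicate number as a block, the pairing changed no member call: RASGRP3 was called at 72 h in BT549 (1.10), in MDA-MB-157 (1.36) and in the average (0.65), with 1 member called in each. RASGRP1, RASGRF2 and, in HCC38, RASGRP3 lay at background, which limits what can be said of them. No member had a second probe to set beside the first.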
